A study of Mus musculus with 6 samples.

Results

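Spp1 encodes osteopontin, and 5 of the 59631 probes left after filtering of flagged spots carried a name for its mRNA. They are the 5 probes that the deposited table of the study pairs with an accession of an Spp1 mRNA, and each carries a different one. Spp1 was chosen by the size of its difference between the groups on these arrays, so its levels and changes are given as a description, with no test. RNA came from frozen liver of C57Bl/6 mice aged 12 months, all measured with Cy3 on single-colour Arraystar mouse lncRNA arrays that also hold mRNA probes. The first group was 3 arrays of liver with hepatocellular carcinoma (HCC) from Apcfl/fl mice, which per the study's methods are homozygous for the hypomorphic Apc580s allele and have tumours with active Wnt/β-catenin signalling. The second was 3 arrays of normal liver from Apc+/+ mice, with no tumour and no further allele or treatment named. The mutation was not restricted to one cell type by any driver named for these mice, and the tumour share of each liver was not given. Apc itself was not analysed here. The labels do not say that each array held RNA of a separate animal, so errors measure the spread between arrays and may in part be technical.

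Osteopontin is a secreted, phosphorylated glycoprotein of the extracellular matrix and a cytokine. It binds integrins through an RGD motif and also binds CD44, and thrombin and matrix metalloproteinases cut it. In healthy liver it is known mainly from bile duct epithelium, and in injured liver also from macrophages and activated stellate cells. Its raised level in blood and tumour tissue has been studied in liver cancer. Spp1 lies in a cluster with the other genes of the SIBLING family, Ibsp, Dmp1, Dspp and Mepe, which encode matrix proteins of bone and teeth.

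Random priming labelled the RNA along its whole length, and the probes' own positions and sequences were not used here. The mRNAs of Spp1 begin at 2 annotated starts that lie 1081 bases apart in RefSeq on build GRCm38.p6. The first promoter is printed to show the sequence before the first start of the gene whose signal differed. It is the 250 bases before that start, on the plus strand at chr5:104434861-104435110, with matches to 3 of 6 motifs searched on both strands in capitals.

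Spp1 promoter, start 1: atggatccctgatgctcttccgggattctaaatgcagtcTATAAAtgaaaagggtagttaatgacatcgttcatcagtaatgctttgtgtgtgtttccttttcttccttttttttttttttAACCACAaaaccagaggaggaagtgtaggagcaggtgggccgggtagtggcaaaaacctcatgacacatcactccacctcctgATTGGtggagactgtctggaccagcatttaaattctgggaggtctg

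The capitals mark, from 5′ to 3′, the TATA box letters TATAAA, 211 to 206 bases before the start, the RUNX letters AACCACA, 129 to 123 bases before it, and ATTGG, the reverse strand of the CCAAT box, 46 to 42 bases before it. Runx2 is a bone transcription factor that is known to act at this gene. In the same window of 32851 RefSeq promoters, TATAAA was found in 12.4%, AACCACA in 4.40% and CCAAT in 33.8%. The AP-1 letters TGANTCA (6.75% of promoters), the TCF/LEF letters ATCAAAG (3.21%) and the GC box letters GGGCGG (32.7%) were found in neither Spp1 promoter, and no motif of the 6 was found at the second start, chr5:104435942-104436191. A match is a description of letters and not a binding site.

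The 6 arrays differed in background more than in overall brightness. Median processed intensity ran from 38.9 to 61.8, and 70.7% to 76.5% of probes were well above background, a flag that the scanner software sets, on the Apcfl/fl arrays against 50.8% to 82.8% on the Apc+/+ arrays, with Apc+/+ replicate 2 lowest. Of the 1200 spots of 20 negative-control probes, 24.8% to 31.7% were well above background on the Apcfl/fl arrays and 8.25% to 57.6% on the Apc+/+ arrays. Set against the errors of single spots, the mean chi-square was 0.774 between Apcfl/fl replicates 1 and 2, less than sampling noise gives, but 14.9 and 15.1 between them and replicate 3. These 2 arrays may hold 1 RNA hybridised again, and their mean was therefore used as 1 sample, so that 2 Apcfl/fl samples were compared with 3 Apc+/+ samples. Apc+/+ replicates 2 and 3 were also closer to each other, at 1.99, than to replicate 1, at 6.37 and 7.56. They were kept as separate samples, and averaging them was run as an alternative. The barcode in the header of each scan began with 1 for the 3 Apcfl/fl arrays and Apc+/+ replicate 1. For the other normal livers it began with 2. This number was read as the row of the slide and is called the slide row here, though the labels do not name it so. The hepatocyte markers Apoa1, Cebpa, Cps1 and Cyp2e1 were well above background on all 6 arrays, which is the check that the labelled tissue allowed. Cps1 was dim in Apcfl/fl HCC, with log2 signals of 5.99, 6.09 and 6.10. The highest negative-control probe of these arrays had 5.65, 5.56 and 5.57.

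Osteopontin mRNA was higher in every Apcfl/fl HCC array than in any normal liver at each of its 5 named probes. An Spp1 probe that the authors had not called between these groups would carry no name here. The agreement of the probes is therefore partly fixed by how they were named. The brightest probe, ASMM9PARTA027293 (NM_001204202), had log2 signals, quantile normalised so that all arrays share 1 distribution, of 13.86, 13.89 and 12.33 in Apcfl/fl replicates 1 to 3 and of 7.41, 8.52 and 8.36 in Apc+/+ replicates 1 to 3. The groups did not overlap, and the lowest Apcfl/fl array stood 3.81 log2 units above the highest normal liver. Before normalisation its spot had processed intensities of 16453, 14751 and 4792 in Apcfl/fl HCC and of 202, 345 and 352 in normal liver. In Apcfl/fl HCC the mean was 13.10 ± 1.09 (SD, n = 2), against 8.10 ± 0.60 (SD, n = 3) for the normal livers. The difference was 5.004 (SE 0.59) on the log2 scale, a 32.1-fold higher signal. Each SE here is the moderated value of limma, which draws a probe's variance towards that of all tested probes. It is therefore not the spread of Spp1 alone, whose SD pooled within the groups was 0.80 at this probe. In bulk liver, more cells that express Spp1 and more Spp1 RNA per cell cannot be told apart.

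**Figure D1:**
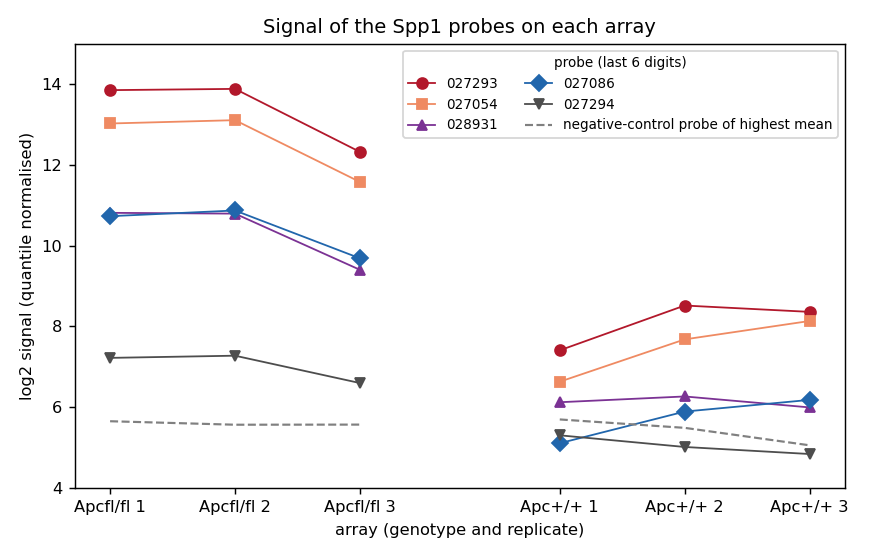
Log2 signal after quantile normalisation (vertical axis) of the 5 Spp1 probes on each of the 6 arrays (horizontal axis), with the negative-control probe of highest mean as a dashed line. Lines only join the values of a probe within a group. Every probe is higher on the 3 Apcfl/fl arrays, replicate 3 is the lowest of these at each probe, and the dimmest probe lies under the dashed line in all 3 normal livers.

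The other probes gave the same order of the groups with smaller differences. Probe ASMM9PARTA027054 (NM_001204203) had log2 signals of 13.03, 13.11 and 11.58 in Apcfl/fl HCC and 6.63, 7.68 and 8.13 in normal liver, a difference of 4.85 (SE 0.64). Probe ASMM9PARTA027086 (NM_001204201) had 10.73, 10.87 and 9.69 against 5.10, 5.89 and 6.18, a difference of 4.52 (SE 0.48). These 2 probes shared with the brightest one that Apc+/+ replicate 1 was the lowest normal liver. Probe ASMM9PARTA028931 (NM_009263) had 10.81, 10.80 and 9.40 against 6.12, 6.26 and 5.99, a difference of 3.98 (SE 0.44). Its normal livers lay within 0.27 log2 units of each other, and replicate 1 was not the lowest of them. The dimmest probe, ASMM9PARTA027294 (NM_001204233), had 7.22, 7.27 and 6.60 against 5.30, 5.01 and 4.84, a difference of 1.87 (SE 0.29). It was well above background in 2 of the 3 normal livers. It therefore met the filter of at least 3 arrays only with the Apcfl/fl arrays, where it was high. Its difference is given as a description and not as support. Here Apc+/+ replicate 1 was the highest normal liver, the reverse of its place at the brightest probe. As folds, the 5 probes gave 32.1, 28.7, 23.0, 15.8 and 3.66.

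The lowest Apcfl/fl array stayed above the highest normal liver by 3.81, 3.45, 3.51, 3.14 and 1.30 log2 units, in the same order of probes. Over all probes, and without a test, 17.4% of the 45640 tested probes had the 3 Apcfl/fl arrays above all 3 normal livers and 16.4% had them below. By the size of the rise, the brightest Spp1 probe had rank 48 and the dimmest rank 1067 among these probes. With each gene taken at its brightest probe, Spp1 had rank 21 of the 2114 mRNA genes named in the table, between Cdk1 (5.01), a kinase of cell division, and Mfge8 (4.99), a secreted integrin ligand. These ranks use the contrast by which Spp1 was chosen. The dimmest probe also met the filter only with the Apcfl/fl arrays, so its rank and its lack of overlap are not a result.

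The change shrank at the dimmest probe. Relative to the change at the brightest probe, the others showed 96.8% (ASMM9PARTA027054), 90.4% (ASMM9PARTA027086), 79.5% (ASMM9PARTA028931) and 37.4% (ASMM9PARTA027294) of it on the log2 scale. The slope of each probe's log2 signal on that of the brightest probe over the 6 arrays was 0.97, 0.89, 0.79 and 0.37. The probes share arrays and RNA, so these slopes rest on the same 6 hybridisations. Signal did not order the 2 middle probes, since ASMM9PARTA027086 was slightly dimmer than ASMM9PARTA028931 over all arrays (8.08 against 8.23) and changed more. The dimmest probe was not well above background in Apc+/+ replicate 2, where its intensity was 24.8 with a spot error of 31.0%.

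Negative controls gave the level that non-specific signal reached on each array. In normal liver 9.33%, 14.0% and 18.7% of negative-control spots were as bright as ASMM9PARTA027294 on replicates 1 to 3, and 11.9%, 5.67% and 1.42% as bright as ASMM9PARTA027086. The shares for ASMM9PARTA028931 were 5.42%, 1.25% and 3.75%. At ASMM9PARTA027054 at most 1.0% of them were as bright, and at the brightest probe at most 0.0833%. On the Apcfl/fl arrays no more than 0.333% were as bright as any Spp1 probe. The normal-liver signals of the dimmer probes thus lay within the range of some negative-control spots, while those of the 2 brightest lay above nearly all of them. What part non-specific signal had in the smaller changes was not tested.

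The 2 other background corrections moved the dimmer probes in opposite directions. An added offset shrinks log2 differences at dim spots and a subtraction widens them, so these directions are not a result about Spp1. With normexp, run on median signals with an offset of 50 added, the differences became 1.001 at ASMM9PARTA027294, 3.49 at ASMM9PARTA027086 and 3.15 at ASMM9PARTA028931, against 4.75 at the brightest probe. With each array's negative-control median subtracted they became 2.17, 4.76 and 4.14, against 5.05 at the brightest probe. Every Spp1 probe with a value was higher in Apcfl/fl HCC in each of 20 settings, of which 19 gave values for all 5. In each of these 19, ASMM9PARTA027294 had the smallest difference. The probes were named for a call on these same arrays, so their shared direction is not a separate result. Settings that changed only the filter or the variance model could not move a difference. The brightest probe had the largest difference in 17 of 20. ASMM9PARTA027054 was larger in the other 3, which were the slide row as a block, the arrays of the first row alone, and the fit without Apc+/+ replicate 3.

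**Figure D2:**
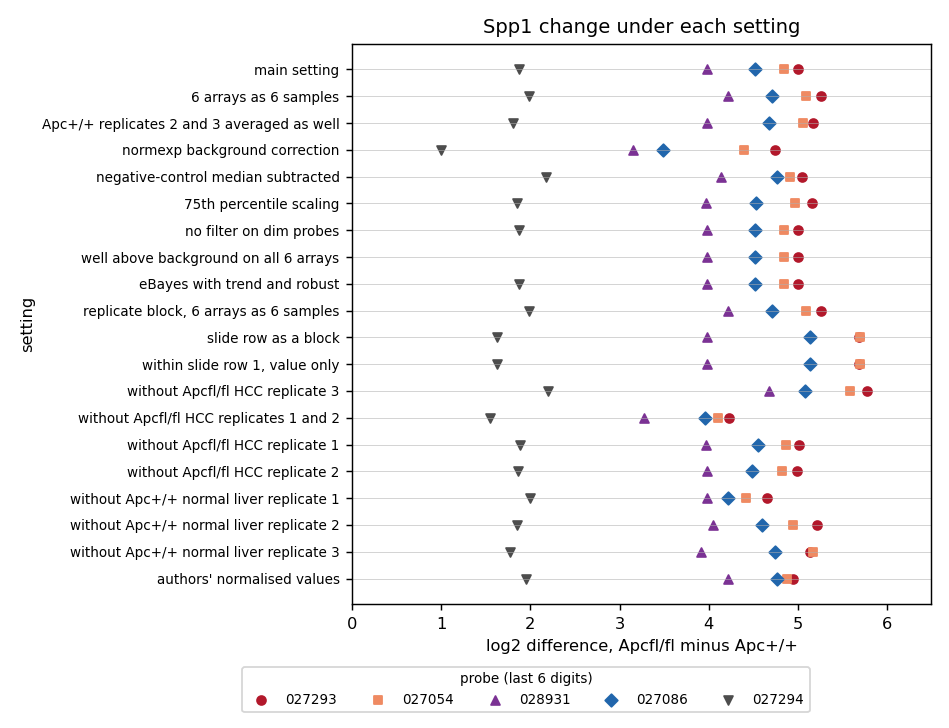
Log2 difference between Apcfl/fl HCC and Apc+/+ liver (horizontal axis) at the 5 Spp1 probes under each processing setting (vertical axis), 1 point per probe with a value. All points are above 0, the dimmest probe runs from 1.001 to 2.197 and the brightest from 4.23 to 5.78.

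Among other genes the dimmest probe changed less about as often as not. In the table, 99 other genes had 2 or more tested probes, and the dimmest probe changed less than the brightest in 48 of them (48.5%). Among the 33 whose probes were at least 2 log2 units apart in mean signal, as those of Spp1 are, it did so in 15 (45.5%). The changes of a gene's probes differed by a median of 0.33 log2 units, against 3.13 for Spp1. A range grows with the number of probes, and 83 of the 99 genes had 2 where Spp1 had 5. The other genes with 5 probes were Ly6e and Ifi27, both known as interferon-induced, with ranges of 2.93 and 0.50. A wider range than that of Spp1 was found in 1 gene, Celf2, which encodes an RNA-binding protein, with 3.69. Its brightest and dimmest probes changed in opposite directions, by 1.73 and -1.96, and so did those of Ly6e, by 1.29 and -0.98. At Spp1 all probes changed in 1 direction, as in 94 of the 99 genes. A range also grows with the size of the change, which was 5.004 at the brightest Spp1 probe. The table holds probes that the authors called at 2-fold or more, so probes with small changes are missing from this comparison, and it is given without a test. Whether the 5 accessions of Spp1 mark transcripts that changed unequally, or probes that bind unequally well, cannot be told apart from signal alone.

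**Figure D3:**
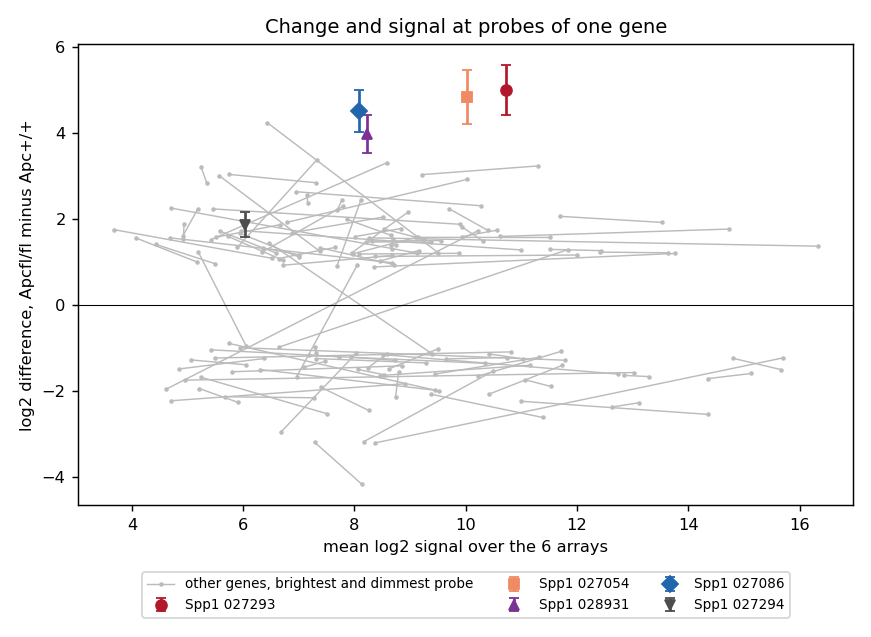
Log2 difference between Apcfl/fl HCC and Apc+/+ liver (vertical axis) against mean log2 signal over the 6 arrays (horizontal axis). Coloured points are the 5 Spp1 probes with their standard errors, and grey lines join the brightest and the dimmest probe of 99 other genes. Spp1 spans 1.87 to 5.004, a range that 1 other gene exceeded, with probes that changed in opposite directions.

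Within the Apcfl/fl group, replicate 3 held less Spp1 signal than the other 2 arrays. Its log2 signal minus the mean of replicates 1 and 2 was -1.55 at the brightest probe, where those 2 arrays differed by 0.03. At the other probes this gap was -1.49 (ASMM9PARTA027054), -1.40 (ASMM9PARTA028931), -1.11 (ASMM9PARTA027086) and -0.65 (ASMM9PARTA027294). ASMM9PARTA028931 kept 90.7% of the brightest probe's gap but 79.5% of its change, and ASMM9PARTA027086 the reverse, 72.1% of the gap but 90.4% of the change. ASMM9PARTA027054 kept 96.4% of the gap and 96.8% of the change. Gaps of this size were found at a minority of like probes. Among probes of like Apcfl/fl level, within 0.5 log2 units, the gap of the brightest Spp1 probe was larger than 92.8% of 821, that of ASMM9PARTA027054 larger than 92.1% of 1095 and that of the dimmest larger than 73.4% of 6452. With replicate 3 as the only Apcfl/fl array the difference at the brightest probe was 4.23, and without it the difference was 5.78.

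The normal livers ranged over less than the Apcfl/fl arrays at each of the 5 probes. The brightest probe ranged over 1.11 log2 units and ASMM9PARTA027054 over 1.505, wider than 92.5% of 4475 and 97.0% of 5525 probes of like level. ASMM9PARTA027086 ranged over 1.07, wider than 85.4% of 7824 probes of like level. ASMM9PARTA028931 and ASMM9PARTA027294 ranged over 0.27 and 0.46, wider than 24.9% and 29.9% of theirs. Apc+/+ replicate 1 was the low sample at the brightest probe, ASMM9PARTA027054 and ASMM9PARTA027086, and it was the only normal liver in the first slide row. Against that array alone the difference at the brightest probe was 5.69, and without it 4.66. The slide row cannot be told apart from the difference between this liver and the other normal livers.

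Few other genes of the osteopontin system carried a name in the table. Of 39 genes in 5 pathway lists, 2 were named and tested, and none of the 10 integrin and CD44 receptor genes, the 4 other SIBLING genes or the 7 enzymes that cut or modify osteopontin was among them. Genes without a name here were not analysed and may still have probes on the array. The names of the list genes all come from probes that the authors called on these samples, so a named gene had been selected for a difference. Over the 2239 mRNA probes of the table with a gene symbol, 12.2% passed the adjusted threshold (adjusted p below 0.05 and 2-fold) as higher and 7.32% as lower, against 1.03% and 0.896% of all 45640 tested probes.

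Jun was the named member of 10 transcription factors reported to act at Spp1. It is a subunit of AP-1 and had log2 signals of 12.83, 12.69 and 13.67 in Apcfl/fl HCC and 11.82, 11.60 and 11.61 in normal liver. The groups did not overlap, and replicate 3 was the highest Apcfl/fl array where it was the lowest for Spp1. The difference of 1.54 (SE 0.32) did not pass (limma adjusted p = 0.0896). It did with the 6 arrays as 6 samples (limma adjusted p = 0.0367) and with a stricter filter, which asked for that flag on each of the 6 arrays (limma adjusted p = 0.0473).

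Lcn2 was the named member of 8 liver tumour markers, and it rose. It encodes lipocalin 2, a secreted iron-scavenging protein of acute inflammation. Its log2 signals were 15.32, 15.22 and 14.59 in Apcfl/fl HCC and 8.30, 7.57 and 7.33 in normal liver, with replicate 3 again the lowest Apcfl/fl array. The difference was 7.20 (SE 0.39, limma adjusted p = 0.0125), and the adjusted p ranged from 8.44e-04 to 0.144 over the alternatives. It no longer passed when Apc+/+ replicate 1, 2 or 3 was left out (limma adjusted p = 0.057, 0.0625 and 0.125) or with Apcfl/fl replicate 3 as the only array of its group (limma adjusted p = 0.0537). The slide row as a block, which is partly tied to the group, and the averaging of Apc+/+ replicates 2 and 3 also ended the call (limma adjusted p = 0.144 and 0.0792).

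Markers of the cell types known to make osteopontin were rarely named. Prom1, a surface protein of progenitor cells and bile duct epithelium, was the 1 of 10 cholangiocyte or progenitor markers with a name. Its brighter probe had 7.09, 7.17 and 6.26 in Apcfl/fl HCC and 4.34, 4.59 and 2.63 in normal liver. That probe was well above background in 1 of the 3 normal livers, and its value in Apc+/+ replicate 3 lay under the median of the negative controls there (3.50). Its other probe, well above background in 2 of them, had 7.29, 7.18 and 6.32 against 3.55, 3.83 and 3.29. Both entered the fit only through the Apcfl/fl arrays, where they were high, so no difference or test is given. Like Spp1, both Prom1 probes were lowest in replicate 3 among the Apcfl/fl arrays.

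Macrophage markers were named for 2 of 13 genes, and neither passed. Adgre1, which encodes F4/80, had 7.08, 6.96 and 8.08 in Apcfl/fl HCC and 6.58, 5.57 and 5.59 in normal liver, a difference of 1.64 (limma adjusted p = 0.170). Cd74, the invariant chain of MHC class II, which other antigen-presenting cells also express, had 12.90, 13.07 and 11.35 against 10.20, 10.93 and 10.65, a difference of 1.57 (limma adjusted p = 0.225). Among the Apcfl/fl arrays replicate 3 was the highest for Adgre1 and the lowest for Cd74, so the 2 markers differed in whether they followed Spp1 within the group. The defining macrophage marker Adgre1 carried the well-above-background flag on all 6 arrays. In Apc+/+ replicates 2 and 3 it lay near the highest negative-control probe of the array (5.49 and 5.13). Lrat, the enzyme that stores retinol in quiescent stellate cells, was the 1 of 10 stellate cell or fibroblast markers with a name, and had 4.64, 4.82 and 6.09 against 7.13, 6.86 and 6.79. Its difference of -1.52 did not pass (limma adjusted p = 0.165), and it was -0.84 with normexp. In Apcfl/fl replicates 1 and 2 Lrat lay under the highest negative-control probe of the array (5.65 and 5.56). Defining markers of bile duct cells such as Krt7, Krt19 and Sox9, and the collagen genes of fibroblasts, were not named and were not analysed here. The part of a change in cell types in the Spp1 difference was not tested.

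Hepatocyte markers lay lower in Apcfl/fl HCC at each of the 4 named of 10. Cyp2e1, a cytochrome P450 of pericentral hepatocytes, fell by 4.06 on the log2 scale, from 14.92 to 10.86 (SE 0.34, limma adjusted p = 0.0194). Without Apc+/+ replicate 1, 2 or 3 the adjusted p by limma was 0.0626, 0.0768 and 0.142, and with Apcfl/fl replicate 3 as the only array of its group it was 0.0617. Blocking on the slide row gave 0.157 and averaging Apc+/+ replicates 2 and 3 gave 0.0889, both adjusted p by limma. Apoa1, the main apolipoprotein of high-density lipoprotein, Cebpa, a transcription factor of mature hepatocytes, and Cps1, the first enzyme of the urea cycle, differed by -2.38, -1.56 and -1.21 and did not pass (limma adjusted p = 0.114, 0.121 and 0.147). In all, 1 of the 10 named list genes passed as higher and 1 as lower, beside 12.2% and 7.32% of all named mRNA probes of the table. The groups did not overlap for any of the 10, beside 17.4% (higher) and 16.4% (lower) of all tested probes, but these genes are named because the authors had called them as different. Prom1, 1 of the 10, also entered the fit only through the Apcfl/fl arrays, so its lack of overlap is not a result. The median difference was 1.61 over the 2 macrophage genes and -1.97 over the 4 hepatocyte genes, beside 0.06 over all tested probes and 1.06 over the mRNA probes of the table.

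The named genes most like Spp1 were taken by the root mean square difference of log2 signal over the 6 arrays, each gene set to its own mean in normal liver. Of 2113 genes, with a median of 3.01 log2 units, the closest were Cav1 at 0.34, Bhlha15 at 0.39, Cdk1 at 0.41, Tff3 at 0.496 and Ptgr1 at 0.499, followed by Ccn5 at 0.56. Cav1 encodes the coat protein of caveolae, Bhlha15 (Mist1) a transcription factor of secretory cells, Tff3 a peptide secreted with mucus and Ptgr1 a prostaglandin reductase. The measure is led by the group difference, which was 5.31, 5.17, 5.01, 5.59 and 4.55 in these 5 genes. Within the Apcfl/fl group none matched the gap of replicate 3 at Spp1. It was smaller in Cav1 (-0.91), Bhlha15 (-0.72), Cdk1 (-0.97) and Tff3 (-0.40) and larger in Ptgr1 (-2.77). Within normal liver only Tff3 was as variable as Spp1 among the 5, with a range of 1.59 and replicate 1 lowest at 8.29 against 9.88 and 9.68. Cdk1 was well above background in 2 of the 3 normal livers.

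**Figure D4:**
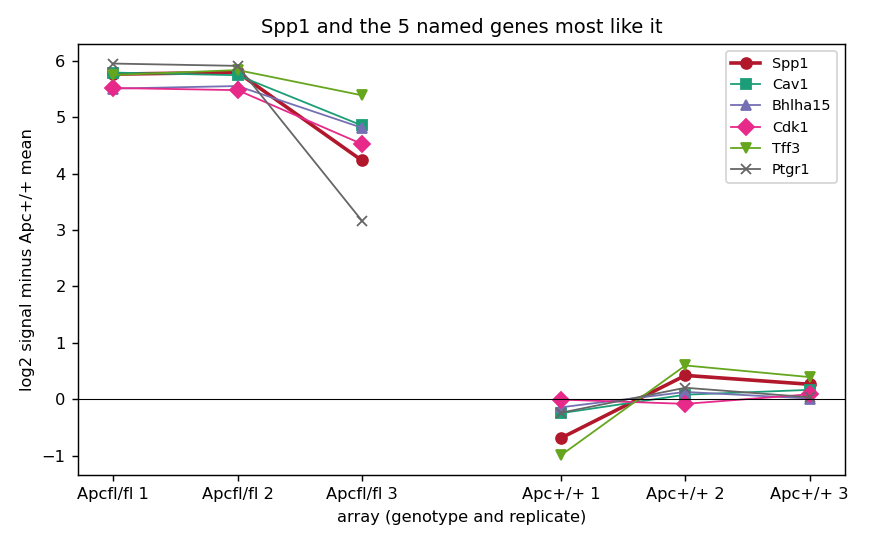
Log2 signal minus the Apc+/+ mean of the same gene (vertical axis) on each of the 6 arrays (horizontal axis) for Spp1, thick line, and the 5 named genes closest to it. Lines only join the values of a gene within a group. Spp1 falls between Cdk1 and Ptgr1 in Apcfl/fl replicate 3 and, with Tff3, is low in Apc+/+ replicate 1.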

How the data were processed

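Mouse liver RNA was measured on 6 arrays of 1 colour, 3 of Apcfl/fl HCC and 3 of Apc+/+ liver. Per the labels, rRNA was removed and the RNA was amplified with random primers into Cy3 cRNA. The authors extracted the scans with Agilent Feature Extraction (11.0.1.1). The deposited scanner files hold the processed intensity of each spot on a linear scale, after background subtraction and not normalised between arrays. The authors also deposited quantile-normalised log2 values of 4197 probes that they called between the groups. The scanner files name some reference probes as well, but none of these stands for a gene given here. Other probes carry no gene name. The deposited columns of fold changes and p-values were not used. The mRNA accessions of the called probes were matched to symbols in a RefSeq table of GRCm38.p6, which named 2239 of 2280 mRNA probes.

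Control spots, 1200 negative-control spots and spots with an outlier or non-uniformity flag were dropped, which lost 78 probes. The 59631 probes left were taken to log2 and quantile normalised, as the study's methods did. Pairs of arrays were compared with the spot errors over 29685 probes. A probe was tested when well above background on at least 3 of 6 arrays (45640 probes). Groups were compared with lmFit and eBayes of limma 3.58.1 in R 4.3.3, in a two-sided test of Apcfl/fl minus Apc+/+, with Benjamini-Hochberg adjustment over all tested probes and a threshold of an adjusted p below 0.05 with a fold of at least 2. The methods' threshold takes the same fold with the p before adjustment, at or under 0.05. The steps were tested on simulated data. Normexp (offset 50) used the median signals, since the scanner files analysed held no mean signal.

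Spp1, the gene lists, the tests and the averaging of Apcfl/fl replicates 1 and 2 were chosen with earlier results of these data known. The genes named are the members of the 9 lists that the table names, the 5 genes most like Spp1, the next one after them, and neighbours in rank. A gene with several probes is given by its brightest. Neighbours in rank, Celf2, Ly6e, Ifi27 and Ccn5 were named after their values were seen. Values after ± are standard deviations over samples. The number of arrays limits the precision. Alternatives covered the samples, background correction, scaling, filter, variance model, replicate block, slide row, left-out arrays and the authors' values.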

Additional observations from a re-analysis of the deposited data

How the results depend on the processing

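The difference at the brightest Spp1 probe, 5.004, moved by less than 1 SD under all 19 alternatives. It ran from 4.23 to 5.78, both with arrays of a group left out. The SD, 0.80, was pooled within the groups and includes the gap of Apcfl/fl replicate 3. Settings that changed only the filter or the variance model could not move the difference. The slide row as a block and the first row alone gave the same value. Of 94 comparisons over the 5 Spp1 probes, these included, 89 stayed within 1 SD, 5 moved and none reversed. Spot brightness limits the dimmest probe, which was not tested when all 6 arrays had to be well above background. No pairing by replicate number was seen, as the deviations of same-numbered arrays correlated at 0.0587, -0.0686 and 0.0356. With 3 arrays a group, and Apcfl/fl replicates 1 and 2 nearly alike, this check could miss a pairing. With the replicate block, on 6 arrays, the Spp1 difference was 5.26, 1075 probes passed the adjusted threshold, and 2 list genes were called higher.

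The count of probes that passed after adjustment, 878 by limma, depended on the setting. It was 3441 with 6 arrays as 6 samples, 1660 with normexp, 550 after subtraction of the negative-control median, 277 with no filter on dim probes, 1966 with probes well above background on all 6 arrays and 1900 with eBayes with trend and robust. Blocking on the slide row left 0, where 3964 passed the methods' threshold, and so did averaging Apc+/+ replicates 2 and 3 (0 probes), where 4534 did. With arrays left out it ran from 0 to 973. It was 0 without Apcfl/fl replicates 1 and 2, without Apc+/+ replicate 1 and without Apc+/+ replicate 3, where 5978, 5749 and 4326 passed the methods' threshold, 1 without Apc+/+ replicate 2 and 361 without Apcfl/fl replicate 3. The methods' threshold itself was passed by 5118 probes, by 2998 with normexp and by 4326 to 6674 with arrays left out. The cause of these shifts was not tested.

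Among list genes, 1 was called higher, with 3 on 6 arrays, 2 with normexp, 2 with probes well above background on all 6 arrays, and 0 with the slide row as a block or with Apc+/+ replicates 2 and 3 averaged. The 1 called lower became 4 on 6 arrays and 0 under those last settings. Counts of calls as higher on 6 arrays, with normexp and with the replicate block include Prom1, which entered the fit through the Apcfl/fl arrays alone. With arrays left out both counts ran from 0 to 1. Of 169 comparisons of single list genes, Prom1 included, 149 stayed on their side of the threshold, 12 lost the call, 8 gained it and none reversed. Of the gains, 3 were at Prom1. Within the first slide row alone, and on the authors' values, which cover called probes only, no count was made.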
